A study of Mus musculus with 7 samples.

Results

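The insulin-like growth factor (IGF) binding protein family was followed in mouse neural stem cells of 3 genotypes. The members were taken by gene symbol from the deposited expression table: the 7 binding protein genes Igfbp1 to Igfbp7, the ligand gene Igf1 and the receptor gene Igf1r. All 9 were present among the 18145 genes of the table, and all 9 passed the filter on low values that left 18134 genes for testing. The cells were cultured neural stem cells at passage 1, from which total RNA was extracted and sequenced. The 7 libraries came from 3 wild-type lines (WT), 2 lines of genotype Tet-TFoCa (TFoCa) and 2 lines of genotype Tet-TMut (TMut), each library from a line of its own according to the design text. TET enzymes oxidise the methyl group of 5-methylcytosine in DNA stepwise to hydroxymethyl-, formyl- and carboxylcytosine, and the series title sets the first of these products against the later ones. The labels do not say which TET genes were altered or which step each genotype affects, and they give no strain, sex or way of deriving the lines. Whether the lines of a genotype came from separate embryos is not given in the sources used here, so p-values measure the spread between these lines.

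IGF1 and IGF2 are secreted growth factors that signal through the receptor tyrosine kinase encoded by Igf1r, to receptor substrates and on to PI3K, AKT and mTOR. The binding proteins 1 to 6 hold IGFs in the extracellular space with high affinity, which can keep the ligand from the receptor or carry and store it, and proteases release it again. IGFBP7 is a related protein with low affinity for IGFs. In the developing brain IGF signalling is known for promoting growth and survival of neural progenitors, and Igfbp2 and Igfbp5 are known to be expressed there.

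The libraries held between 33340167 and 62545457 reads in genes. The 10 neural stem cell markers looked at (Sox2, Nes, Pax6, Sox1, Fabp7, Msi1, Prom1, Notch1, Hes5 and Vim) were detected in each genotype, and their summed normalized count was 176993 to 181928 in WT, 151338 to 162258 in TFoCa and 130797 to 155962 in TMut. Without Vim, which mesenchymal cells express too, the other 9 summed to 110793 to 111437 in WT, 66425.5 to 73621 in TFoCa and 29541.5 to 42301 in TMut. Sox2 and Sox1 fell in TFoCa against WT. None of the 10 was at 0 in any library. In TMut against WT, 8 of them fell and 1, Vim, rose, while 7 of 7 neuron, 5 of 5 astrocyte and 4 of 6 oligodendrocyte lineage markers fell. In that comparison 18.4% of all genes tested rose and 20.4% fell. The cultures also held RNA of genes used as markers of other cell types. The 10 mesenchymal markers (Col1a1, Col1a2, Col3a1, Pdgfra, Pdgfrb, Thy1, Dcn, Lum, Twist1 and Prrx1) summed to 139859 to 151870 in WT, 342616 to 394501 in TFoCa and 188435 to 261263 in TMut, and 7 pluripotency markers to 13244 to 26927, 1083 to 1323 and 12738 to 48625. The mesenchymal sum is mostly collagen RNA: in WT the means of Col3a1, Col1a1 and Col1a2 were 67219, 42907.5 and 20913, and the next was Pdgfrb (4818). Of the mesenchymal markers 8 rose and 0 fell in TFoCa against WT, and 3 rose and 3 fell in TMut against WT. Of the 7 pluripotency markers 0 rose and 7 fell in TFoCa against WT, and 1 rose and 0 fell in TMut against WT. In TMut against TFoCa 7 of them rose and 0 fell, where 17.3% of all genes tested rose and 18.5% fell. Among all genes tested 5.25% rose and 3.52% fell in TFoCa against WT. Since RNA came from whole cultures, fewer cells of a type and less RNA per cell cannot be told apart. Nor can other cells be told from neural stem cells that express such markers. The part of these markers in the results below was not tested.

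Levels are given as normalized counts, which are reads divided by the size factor of the library. Differences are log2 fold changes ± standard error from limma, fitted to log2(normalized count + 1) in 1 model of the 3 genotypes, with p-values adjusted over all genes tested by the Benjamini-Hochberg method. A gene rose or fell where the adjusted p was under 0.05. On this scale the change of genes with few reads is understated.

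In TFoCa against WT, 4 of the 9 genes rose (Igfbp2, Igfbp3, Igfbp4 and Igf1r), 0 fell and 5 did not pass the test, where 8.77% of all genes tested passed it. In TMut against WT, 4 rose (Igfbp3, Igfbp4, Igfbp6 and Igfbp7), 2 fell (Igfbp1 and Igfbp2) and 3 did not pass, where 38.8% of all genes passed. In TMut against TFoCa, 0 rose, 5 fell (Igfbp1, Igfbp2, Igfbp5, Igf1 and Igf1r) and 4 did not pass, where 35.8% of all genes passed. Of the members counted as 0 here, 1 (Igfbp1) was lower in TFoCa and 2 (Igfbp3 and Igfbp6) were higher in TMut than in TFoCa at an unadjusted p under 0.05, and DESeq2, edgeR and limma-voom also called 0 of each. The median log2 fold change of the members was 0.76, 0.14 and -0.66 in these comparisons, and that of all genes -0.02, 0.00 and 0.00. The libraries of the groups did not overlap for 7 members in each comparison. In TFoCa against WT 6 of these were higher and 1 lower, where 45.2% of all genes were apart, 21% higher and 24.2% lower. In TMut against WT 5 were higher and 2 lower, where 67.1% of all genes were apart, 33.4% higher and 33.6% lower. In TMut against TFoCa 2 were higher and 5 lower, where 67.5% of all genes were apart, 33.9% higher and 33.5% lower. The 3 comparisons share libraries and are not independent of each other. When WT replicate 2 was left out, 2 members passed in TFoCa against WT and 3 in TMut against TFoCa. In TMut against TFoCa 3 passed without TFoCa replicate 2 or TMut replicate 1, and 1 without TMut replicate 2 or in a fit to the libraries of this pair.

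**Figure D1:**
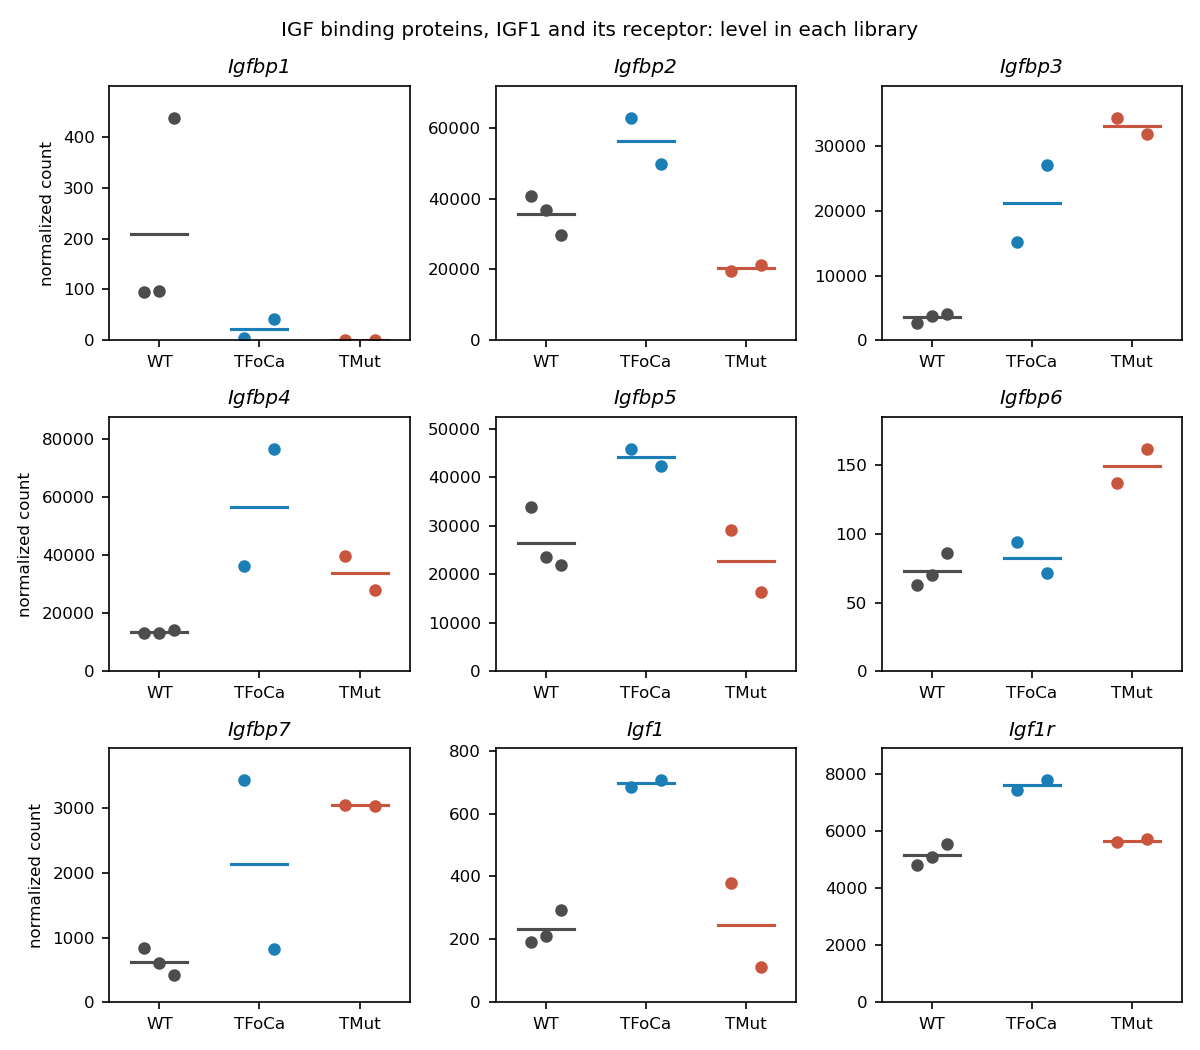
Normalized count (linear axis from 0) of each of the 9 genes in each library, grouped by genotype on the x axis. Points are libraries and short lines the group means; Igfbp3 and Igfbp4 lie above all WT points in both mutant genotypes, while Igfbp1 is at 0 in both TMut libraries.

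Igfbp3 encodes the main IGF carrier of blood plasma and is also made by many mesenchymal cells. It had the largest rise of the family in each mutant genotype against WT. Its normalized count was 2754, 3818 and 4106 in WT replicates 1 to 3, 15239.5 and 27034 in the TFoCa replicates, and 34356 and 31879 in the TMut replicates. Every mutant library lay above every WT library, and both TMut libraries lay above both TFoCa libraries. Igfbp3 rose by 2.53 ± 0.25 in TFoCa (adjusted p = 0.0029), a 5.78-fold change, and by 3.24 ± 0.25 in TMut (adjusted p = 0.00017), a 9.43-fold change. The difference between TMut and TFoCa of 0.71 ± 0.28 did not pass the test (adjusted p = 0.0837, 95% interval 0.06 to 1.35), and on leaving out TFoCa replicate 2 it was 1.12 (adjusted p = 0.0131). Against WT both rises passed the test whichever library was left out.

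Igfbp4, whose product binds IGFs until the protease PAPP-A cuts it, was also higher in both mutant genotypes. It stood at 13139.9, 13319 and 14121 in WT, at 36192 and 76518 in TFoCa, and at 39555 and 27887 in TMut. The WT lines were within 1.07-fold of each other, while the TFoCa lines differed by 2.11-fold. The rise was 1.96 ± 0.29 in TFoCa (adjusted p = 0.00989), 3.89-fold, and 1.30 ± 0.29 in TMut (adjusted p = 0.0105), 2.46-fold. In TMut the call was lost without TMut replicate 1 (1.04, adjusted p = 0.0668). Within each mutant genotype the library with the higher Igfbp4 level also had the higher mesenchymal marker sum. That sum was 394501 against 342616 in TFoCa and 261263 against 188435 in TMut. Igfbp3 and Igf1 followed the same order in both, while Igfbp2, Igfbp5, Igfbp6, Igfbp7 and Igf1r did not follow it throughout. With 2 libraries per mutant genotype, many genes can match such an order without any relation to the markers. The share of all genes that matched it was not counted, so no conclusion is drawn from it. The part of this relation in the Igfbp4 result was not tested. TMut and TFoCa libraries overlapped, and their difference of -0.66 ± 0.32 did not pass the test (adjusted p = 0.142, 95% interval -1.41 to 0.08), though it did with DESeq2 (-0.74, adjusted p = 0.049) and on leaving out TFoCa replicate 1 (-1.20, adjusted p = 0.00841).

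Igfbp1, known as a gene of liver and decidua whose expression insulin represses, moved the other way. Its normalized count was 94.1, 97.6 and 437 in WT, 3.83 and 41.4 in TFoCa and 0 in both TMut libraries. These values rest on 654 reads over the WT libraries, 38 over TFoCa and 0 over TMut. The TMut libraries lay below all others, and WT replicate 3 stood 4.64-fold above the lowest WT line. Igfbp1 fell in TMut against WT (fitted log2 fold change -7.32 ± 1.01, adjusted p = 0.00134); with TMut at 0 the fitted value depends on the pseudocount and is no bound. Against a floor of 3 reads over the TMut group, which covers counting error of independent reads only, its mean was at least 119-fold lower than in WT and at least 12.8-fold lower than in TFoCa. Both limits rest on the highest library: they were at least 54.3-fold on leaving out WT replicate 3 and at least 2.17-fold on leaving out TFoCa replicate 2. On leaving out TMut replicate 1 or 2, which weakens the floor by construction, they were at least 58.2-fold or 60.7-fold against WT and at least 6.28-fold or 6.54-fold against TFoCa. The call against TFoCa (adjusted p = 0.0311) was lost with a pseudocount of 8 (adjusted p = 0.177), with edgeR (adjusted p = 0.0768), with limma-voom (adjusted p = 0.17) and with these genotypes fitted alone (adjusted p = 0.0783). It was also lost on leaving out TFoCa replicate 2 (fitted value -2.27), WT replicate 2 or either TMut library, with adjusted p from 0.0502 to 0.126. In TFoCa against WT the difference of -3.48 ± 1.01 did not pass the test (adjusted p = 0.0735), but it did without TFoCa replicate 2 (-5.05, adjusted p = 0.0246).

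In the RefSeq annotation of build GRCm38.p6, Igfbp1 and Igfbp3 are direct neighbours on chromosome 11, Igfbp1 on the plus and Igfbp3 on the minus strand, as are Igfbp2 and Igfbp5 on chromosome 1. In TMut against WT Igfbp1 fell and Igfbp3 rose. RefSeq promoter windows were found for all 9 genes; the 250 bases before the annotated start are shown for the 4 genes that differed most between TMut and WT. They are printed 5′ to 3′ on the gene's strand, with CpG dinucleotides, the main sites of DNA methylation in mammals, in capitals. The windows are chr11:7197537-7197786 (plus strand), chr11:7213924-7214173 (minus strand), chr5:77408046-77408295 (minus strand) and chr11:99040994-99041243 (plus strand), in the GRCm38.p6 build and not in the mm39 build of the counts.
Igfbp1: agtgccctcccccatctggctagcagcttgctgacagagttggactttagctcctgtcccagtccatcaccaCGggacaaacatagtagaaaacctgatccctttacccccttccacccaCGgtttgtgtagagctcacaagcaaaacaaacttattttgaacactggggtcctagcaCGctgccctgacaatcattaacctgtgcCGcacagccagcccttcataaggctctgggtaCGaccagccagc
Igfbp3: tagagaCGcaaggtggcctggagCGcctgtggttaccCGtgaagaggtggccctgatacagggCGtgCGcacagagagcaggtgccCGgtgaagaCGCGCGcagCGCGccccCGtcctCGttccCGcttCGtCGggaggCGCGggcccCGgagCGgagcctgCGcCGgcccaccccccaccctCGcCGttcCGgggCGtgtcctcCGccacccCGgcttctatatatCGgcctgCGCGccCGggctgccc
Igfbp7: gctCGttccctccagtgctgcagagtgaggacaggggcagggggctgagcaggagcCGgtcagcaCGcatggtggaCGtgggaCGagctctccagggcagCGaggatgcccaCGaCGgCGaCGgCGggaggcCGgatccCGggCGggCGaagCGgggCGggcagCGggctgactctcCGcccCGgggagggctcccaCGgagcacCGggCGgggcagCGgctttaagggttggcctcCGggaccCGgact
Igfbp4: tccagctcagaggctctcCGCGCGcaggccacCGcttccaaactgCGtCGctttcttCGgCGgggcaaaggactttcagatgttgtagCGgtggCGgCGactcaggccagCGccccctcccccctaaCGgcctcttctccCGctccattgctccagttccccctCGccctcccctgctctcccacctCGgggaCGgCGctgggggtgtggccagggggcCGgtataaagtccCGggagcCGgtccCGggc

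The windows held 5 CpG in Igfbp1, 32 in Igfbp3, 26 in Igfbp7 and 22 in Igfbp4. Of the other members called in TMut against WT, Igfbp6, which rose, had 7, and the windows of the 2 annotated starts of Igfbp2, which fell, had 14 and 11. Over all these windows CpG number did not separate the members that rose from those that fell. The starts of Igfbp6, of Igf1r and of the Igfbp2 window with 14 CpG were not found in a GENCODE transcript of the gene. Among called members with a start that was found, those that rose had 32, 26 and 22 CpG and those that fell 5 and 11. That split rests on leaving out Igfbp6, which rose with 7, and on few genes, and it was not tested. Over 32841 RefSeq promoter windows of the same length the median was 6. At least as many CpG as in the window of Igfbp3 were found in 4.59% of all windows, at least as many as in that of Igfbp7 in 9.59%, as in that of Igfbp4 in 14.8% and as in that of Igfbp1 in 55.6%. Among the members not called there, Igf1r had 42, Igfbp5 10 and Igf1 5 CpG. The motif TATAAA, searched on both strands, occurred in the window of Igfbp4 on the gene's strand, starting 28 bases before the start, and in that of Igfbp6 on the other strand. It occurred in 12.4% of all windows. No methylation values were analysed here, and the counts are a description of sequence only.

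**Figure D2:**
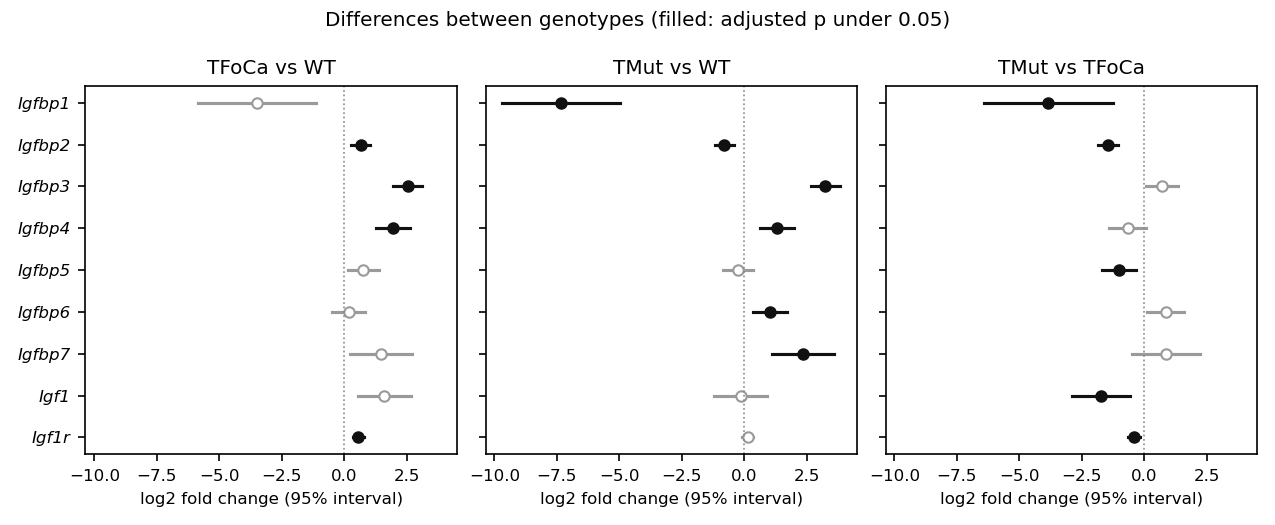
Log2 fold change (x axis, points) with its 95% interval (lines) from limma for each of the 9 genes in the 3 comparisons of genotypes; filled points passed an adjusted p of 0.05. Igfbp3 and Igfbp4 lie right of 0 against WT in both mutant genotypes, and Igfbp2 lies right of 0 in TFoCa and left of 0 in TMut.

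Igfbp2, an abundant binding protein of embryonic brain, differed in direction between the mutant genotypes. Its normalized count was 40766, 36685 and 29697 in WT, 62745 and 49842 in TFoCa, and 19435 and 21272 in TMut. The 3 groups did not overlap, with TFoCa highest and TMut lowest. Igfbp2 fell by 0.80 ± 0.16 in TMut against WT (adjusted p = 0.00716), to 0.574 times the WT level, and TMut lay lower than TFoCa by 2.75-fold (-1.46 ± 0.18, adjusted p = 0.00209). Both calls held whichever library was left out. The rise in TFoCa against WT, 0.66 ± 0.16 or 1.58-fold, was close to the threshold (adjusted p = 0.0486). It was lost with a pseudocount of 8 (adjusted p = 0.0509), with these genotypes fitted alone (adjusted p = 0.0673) and on leaving out any library except TFoCa replicate 2, with adjusted p from 0.0592 to 0.135.

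Igfbp5, whose product binds extracellular matrix as well as IGFs, had the same order of means. It was 33802, 23609 and 21926 in WT, 45846 and 42327 in TFoCa and 29097.5 and 16427.5 in TMut. The TFoCa libraries lay above all others, and TMut overlapped WT. The difference of TFoCa from WT, 0.76 ± 0.26, did not pass the test (adjusted p = 0.118, 95% interval 0.15 to 1.38), although it did with DESeq2 (adjusted p = 0.0397). Between TMut and TFoCa, Igfbp5 was lower in TMut and fell by 1.01 ± 0.29 (adjusted p = 0.0299). That call was lost with these genotypes fitted alone (adjusted p = 0.057), on leaving out either TFoCa library (adjusted p = 0.0897 and 0.0645) and on leaving out TMut replicate 2 (-0.60, adjusted p = 0.158). TMut differed from WT by -0.25 ± 0.26 (adjusted p = 0.489, 95% interval -0.86 to 0.36), and by 0.16 on leaving out TMut replicate 2.

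Igfbp7, a secreted protein gene known for expression in vessels and mesenchyme, was 836, 614 and 428 in WT, 3434 and 831 in TFoCa and 3049 and 3033 in TMut. The TMut libraries were alike and above all WT libraries, while the TFoCa replicates stood apart: replicate 1 lay above both TMut libraries and replicate 2 within the WT range. Igfbp7 rose in TMut by 2.33 ± 0.54 (adjusted p = 0.0113), 5.03-fold, and that call was lost without TMut replicate 2 (2.34, adjusted p = 0.0582). In TFoCa the difference of 1.48 ± 0.54 did not pass the test (adjusted p = 0.13), and it was 2.51 without TFoCa replicate 2 (adjusted p = 0.00859). The difference of TMut from TFoCa was 0.85 ± 0.59 (adjusted p = 0.29). It was 1.87 (adjusted p = 0.011) on leaving out TFoCa replicate 1 and -0.18 (adjusted p = 0.722) on leaving out TFoCa replicate 2. The summed count of 8 endothelial markers was 1546 in TFoCa replicate 1 and 564 in replicate 2, against 1531 to 2229 in WT and 1874 to 2794 in TMut. Of these 8 markers 3 rose in TMut against WT, with log2 fold changes of 3.91 (Tek), 2.72 (Emcn) and 2.07 (Esam) by limma (adjusted p = 0.000356, 0.00172 and 0.00385), and Cdh5 fell by 3.59 (adjusted p = 0.00526). In TFoCa against WT 1 of the 8 endothelial markers fell, Pecam1 (limma log2 fold change -2.97, adjusted p = 0.0246), and 0 rose. The mesenchymal marker sum ran the other way to Igfbp7 in TFoCa, with 342616 in replicate 1 and 394501 in replicate 2. The part of these markers was not tested. Igfbp7 overlaps Polr2b and Gm34648 in the annotation, and whether counting used the strand is not given in the sources used here.

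Igfbp6, whose product prefers IGF2 over IGF1, had few reads in every genotype. It had 62.8, 70.4 and 86.3 normalized counts in WT, 93.9 and 71.8 in TFoCa and 137 and 162 in TMut. TMut lay above every other library, and TFoCa overlapped WT. Igfbp6 rose in TMut by 1.03 ± 0.29 (adjusted p = 0.0248), 2.04-fold, a call that was lost on leaving out WT replicate 1 or 2 or either TMut library, with adjusted p from 0.0517 to 0.12, and with a replicate block (adjusted p = 0.0671). The difference of TFoCa from WT was 0.18 ± 0.29 (adjusted p = 0.746, 95% interval -0.49 to 0.84). That of TMut from TFoCa, 0.85 ± 0.31, did not pass the test (adjusted p = 0.0685).

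The ligand gene Igf1 was higher in the TFoCa libraries than in any other. It had 193, 212 and 293 normalized counts in WT, 686 and 707 in TFoCa, and 380 and 113 in TMut. The TMut lines differed by 3.37-fold and lay on either side of the WT range. The difference of TFoCa from WT, 1.60 ± 0.46 or 3.03-fold, did not pass the test (adjusted p = 0.0713), but did with DESeq2 (adjusted p = 0.00355), with limma-voom (adjusted p = 0.0268), with these genotypes fitted alone (adjusted p = 0.0108) and on leaving out either TMut library (adjusted p = 0.0113 and 0.0106). Igf1 was lower in TMut than in TFoCa and fell by 1.74 ± 0.50 (adjusted p = 0.0309). That call was lost with these genotypes fitted alone (adjusted p = 0.0803) and on leaving out WT replicate 2, either TFoCa library or TMut replicate 2 (-0.87 without the last), with adjusted p from 0.0525 to 0.0844. TMut and WT differed by -0.14 ± 0.46 (adjusted p = 0.828, 95% interval -1.21 to 0.92). That difference was -1.02 without TMut replicate 1 (adjusted p = 0.0353) and 0.73 without TMut replicate 2 (adjusted p = 0.102).

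The receptor gene Igf1r varied by at most 1.15-fold between lines of a genotype. It was 4809, 5068 and 5533 in WT, 7416 and 7781 in TFoCa and 5594 and 5698 in TMut. All 3 groups were apart, with the TMut libraries just above the highest WT library. Igf1r rose in TFoCa by 0.57 ± 0.09 (adjusted p = 0.0129), 1.48-fold, and this call was lost on leaving out WT replicate 2 (0.56, adjusted p = 0.0631). In TMut it fell against TFoCa by 0.43 ± 0.10 (adjusted p = 0.0165), a call lost with these genotypes fitted alone (adjusted p = 0.0617) and on leaving out either TMut library (adjusted p = 0.0566 and 0.0676). Igf1 overlaps Igf1os, and Igf1r overlaps Gm51487 and Gm51488, in the annotation. Against WT the TMut difference of 0.14 ± 0.09 did not pass the test (adjusted p = 0.278, 95% interval -0.08 to 0.36).

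To compare genes with each other, levels were divided by the length of all annotated exons of each gene, with overlapping bases counted once. The order below depends on that choice of length. In WT the order of mean normalized counts per kb was Igfbp2 (19337), Igfbp5 (4403), Igfbp4 (3063), Igfbp3 (1137), Igfbp7 (518), Igf1r (306), Igfbp1 (137), Igfbp6 (65.8) and Igf1 (23.5). Neighbours in this order did not overlap between libraries, except Igf1r with Igfbp1 and Igfbp1 with Igfbp6. In TFoCa Igfbp4 (12761.5) came next after Igfbp2, and Igfbp5 (7340.41) and Igfbp3 (6753) overlapped, as did Igfbp6 (74.5) and Igf1 (70.3). In TMut Igfbp3 (10581) overlapped Igfbp2 (11019.7) at the top.

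As a share of the summed level per kb of the 7 binding proteins, Igfbp2 made up 67.3% ± 2.55 (SD, n = 3) in WT, 51.7% ± 10.3 (SD, n = 2) in TFoCa and 31.1% ± 4.77 (SD, n = 2) in TMut. By library the Igfbp2 share was 64.4% to 69.3% in WT, 59.0% and 44.4% in the TFoCa replicates and 27.7% and 34.5% in the TMut replicates, so the groups were apart. The Igfbp3 share was 4.08% ± 1.28 in WT, 11.3% ± 4.07 in TFoCa and 29.7% ± 1.10 in TMut (SD, same n). Igfbp4 held 9.19% to 12.8% in WT, 14.2% and 28.5% in the TFoCa replicates and 23.6% and 18.9% in the TMut replicates. Igfbp5 held 13.7% to 17.4%, 13.3% and 11.6%, and 12.8% and 8.19%. Igfbp7 held 1.42% to 2.14% in WT, 4.93% and 1.13% in TFoCa and 6.65% and 7.51% in TMut, so its TFoCa lines lay on either side of the WT range. Shares depend on each other and were not tested. They also depend on the lengths: in normalized counts not divided by length, Igfbp2 held 41.9% to 46.9% and Igfbp5 30.2% to 37.0% in WT. In the TMut replicates Igfbp2 then held 15.5% and 21.1%, below Igfbp3 (27.3% and 31.7%) and Igfbp4 (31.5% and 27.7%). The summed level per kb itself was 32364, 28664 and 24957 in WT, 57596.5 and 60776 in TFoCa and 37946 and 33406 in TMut. Both mutant genotypes lay above WT in this sum, TFoCa by more than TMut.

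**Figure D3:**
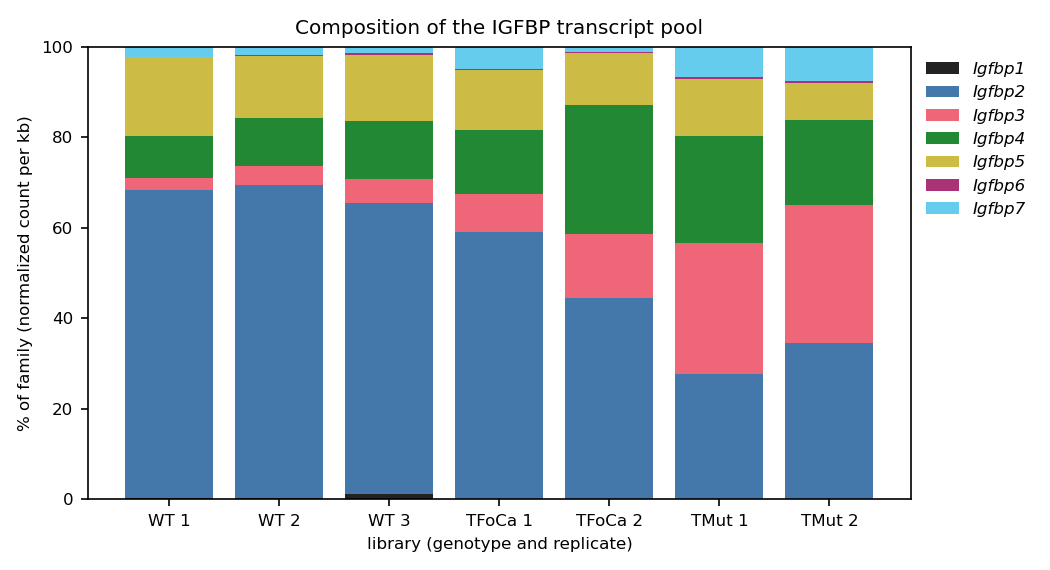
Share of each of the 7 binding protein genes in the family's summed normalized count per kb, in percent (y axis), for each library (x axis). The Igfbp2 segment shrinks from 64.4% or more in WT to 34.5% or less in TMut, and the Igfbp3 segment grows from at most 5.26% to at least 28.9%.

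The wider IGF pathway was described by 7 lists of 70 genes, of which 66 were in the table and tested. In TFoCa against WT 12 of the 66 rose and 0 fell (5.25% of all genes rose and 3.52% fell), in TMut against WT 19 rose and 11 fell (18.4% and 20.4% of all genes), and in TMut against TFoCa 12 rose and 18 fell (17.3% and 18.5%). The same shares of all genes apply to the counts of each list below, and no list was tested as a whole. In TFoCa 4 of the 66 were lower at an unadjusted p under 0.05, and DESeq2, edgeR and limma-voom called 0 lower. Fitted to these genotypes alone, or on leaving out either TMut library, 2 were lower (14, 15 and 15 higher), and on leaving out TFoCa replicate 2, 1 was lower and 16 were higher. The median log2 fold changes of the 66 were 0.18, 0.06 and -0.03. On leaving out WT replicate 2, 5 rose in TFoCa against WT, and on leaving out TMut replicate 2, 6 rose and 8 fell in TMut against TFoCa.

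Of the 4 other ligand and receptor genes, Igf2, Igf2r, Insr and Insrr, 2 rose in TFoCa and 1 in TMut against WT. Igf2r, which encodes a receptor that takes up IGF2 for degradation, was 8770, 9251 and 10582 in WT, 17626 and 15450.3 in TFoCa and 31071 and 34483 in TMut. It rose by 0.80 ± 0.12 in TFoCa (adjusted p = 0.00996), by 1.78 ± 0.12 in TMut (adjusted p = 0.000117) and by 0.99 ± 0.13 from TFoCa to TMut (adjusted p = 0.0024). Igf2 rose in TFoCa by 0.55 ± 0.12 (adjusted p = 0.0355), a call lost with these genotypes fitted alone (adjusted p = 0.0503) and on leaving out any 1 WT library or TFoCa replicate 2, with adjusted p from 0.079 to 0.121. Igf2 and Igf2r overlap the antisense RNAs Igf2os and Airn, and reads of such pairs cannot be told apart without strand. Insr, the insulin receptor gene, differed by -0.26 ± 0.10 in TMut against WT (adjusted p = 0.0815), and Insrr, a related receptor, fell by 1.86 ± 0.42 from TFoCa to TMut (adjusted p = 0.0134; 0.0564 with these genotypes fitted alone).

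Among 7 genes for proteases of binding proteins, their inhibitors and carriers, 1 rose in TFoCa and 2 rose and 1 fell in TMut against WT. Adam12, a metalloprotease that cleaves IGFBP3 and IGFBP5, rose by 1.31 ± 0.25 in TFoCa (adjusted p = 0.0199) and by 2.88 ± 0.25 in TMut (adjusted p = 0.00022). Its TFoCa call was lost on leaving out WT replicate 2 (adjusted p = 0.0646) or TFoCa replicate 1 (adjusted p = 0.065). From TFoCa to TMut Adam12 rose by 1.58 ± 0.27 (adjusted p = 0.00507). Htra1, a secreted serine protease, rose in TMut by 2.85 ± 0.42 (adjusted p = 0.00169). Stc1, of the stanniocalcins that inhibit PAPP-A, differed in TFoCa by 1.17 ± 0.31 (adjusted p = 0.0557), passing with DESeq2, edgeR and limma-voom (adjusted p = 0.00181, 0.0456 and 0.0268) and on leaving out either TMut library (adjusted p = 0.0151 and 0.0149). From TFoCa to TMut Stc1 fell by 1.79 ± 0.34 (adjusted p = 0.00678).

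Of 11 genes for other proteins with an IGFBP domain, 3 rose in TFoCa, and 5 rose and 1 fell in TMut against WT. Ccn4 rose by 2.20 ± 0.21 in TFoCa (adjusted p = 0.00242), and Ccn2, the matrix protein also called connective tissue growth factor, by 1.39 ± 0.21 in TFoCa (adjusted p = 0.0103; 0.0605 with a replicate block) and by 2.52 ± 0.21 in TMut (adjusted p = 0.00021). Ccn1 rose in TMut by 2.72 ± 0.23 (adjusted p = 0.00022) and lay 1.37 ± 0.26 above TFoCa (adjusted p = 0.00668). Igfbpl1, a gene of neural progenitors and young neurons, went the other way: it was 27497, 27229 and 18224 in WT, 11059 and 10426 in TFoCa and 2088 and 525 in TMut. The TFoCa libraries lay below WT and the TMut libraries below both. Igfbpl1 fell by 3.36 ± 0.54 from TFoCa to TMut (adjusted p = 0.00418), and its difference from WT in TFoCa was -1.15 ± 0.50 (adjusted p = 0.195).

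Of 8 cell surface partners, 4 rose in TFoCa, and 5 rose and 1 fell in TMut against WT. The 4 that rose in TFoCa were the 4 integrin genes on the list, Itga5, Itgb1, Itgav and Itgb3. Itga5, whose product pairs with integrin beta 1, rose by 0.92 ± 0.10 in TFoCa (adjusted p = 0.00394), by 1.49 ± 0.10 in TMut (adjusted p = 0.000128) and by 0.57 ± 0.11 from TFoCa to TMut (adjusted p = 0.00842). Itgb3 rose by 1.53 ± 0.25 in TFoCa (adjusted p = 0.0123; 0.0691 with a replicate block) and Itgav by 1.44 ± 0.13 in TMut (adjusted p = 0.000241). Ptprz1, a receptor phosphatase gene of radial glia, fell by 3.60 ± 0.58 from TFoCa to TMut (adjusted p = 0.00421).

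Inside the cell, 1 of 11 receptor substrates and adaptors rose in TFoCa, and 2 rose and 2 fell in TMut against WT. The shares of all genes that passed there were 8.77% and 38.8%. Irs1, a docking protein of the activated receptor, differed by 0.68 ± 0.17 in TFoCa (adjusted p = 0.0507), passing with DESeq2, edgeR and limma-voom (adjusted p = 0.00539, 0.0407 and 0.0257), with TMM factors (adjusted p = 0.0448) and on leaving out either TMut library (adjusted p = 0.0199 and 0.0192). Irs1 fell by 1.41 ± 0.19 from TFoCa to TMut (adjusted p = 0.00249). Irs2 fell by 0.57 ± 0.11 there (adjusted p = 0.00838), but not on leaving out TMut replicate 2 (adjusted p = 0.0528). Shc1, an adaptor to the RAS pathway, rose in TMut against WT by 1.58 ± 0.19 (adjusted p = 0.000778). Grb14, an adaptor that inhibits insulin receptor signalling, rose in TMut by 0.83 ± 0.17 (adjusted p = 0.00682) and in TFoCa by 0.70 ± 0.17 (adjusted p = 0.0417), the latter not on leaving out any 1 WT library or TFoCa replicate 1, with adjusted p from 0.0922 to 0.14.

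Of 22 genes of the PI3K, AKT, mTOR and FOXO list, 1 rose and 0 fell in TFoCa, 4 rose and 6 fell in TMut against WT, and 1 rose and 7 fell from TFoCa to TMut. Over all genes tested, 8.77%, 38.8% and 35.8% passed in these comparisons. The gene that rose in TFoCa was Rictor, of the mTOR complex 2 (0.64 ± 0.15, adjusted p = 0.0417), a call lost on leaving out any 1 WT library or TFoCa replicate 1, with adjusted p from 0.102 to 0.135. Mtor itself differed by -0.24 ± 0.09 in TFoCa (adjusted p = 0.131). In TMut against WT Phlpp1, a phosphatase of AKT, fell by 1.51 ± 0.14 (adjusted p = 0.000262) and Gsk3b, a kinase that AKT inhibits, fell by 0.92 ± 0.09 (adjusted p = 0.000403). From TFoCa to TMut Phlpp1 fell by 1.58 ± 0.15 (adjusted p = 0.00144). Of the 3 IGF2 mRNA-binding protein genes, 0 passed limma's test in any comparison, 0 had an unadjusted p under 0.05, and DESeq2, edgeR and limma-voom called 0. In TFoCa against WT Igf2bp3 differed by -0.15 ± 0.18 (adjusted p = 0.636) and Igf2bp2 by -0.075 ± 0.14 (adjusted p = 0.792). The nearest to the threshold was Igf2bp3 in TMut against WT (-0.41 ± 0.18, adjusted p = 0.102), which passed on leaving out either TFoCa library (adjusted p = 0.0201 and 0.0204). Igf2bp1 differed there by 0.49 ± 0.26 (adjusted p = 0.169), passing on leaving out either TFoCa library (adjusted p = 0.00455 and 0.00445). Between TMut and TFoCa it differed by 0.54 ± 0.28 (adjusted p = 0.17), and by 1.05 on leaving out TFoCa replicate 2 (adjusted p = 0.00303), while Igf2bp3 differed by -0.26 ± 0.19 (adjusted p = 0.331), and by -0.56 on leaving out TFoCa replicate 1 (adjusted p = 0.0278).

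**Figure D4:**
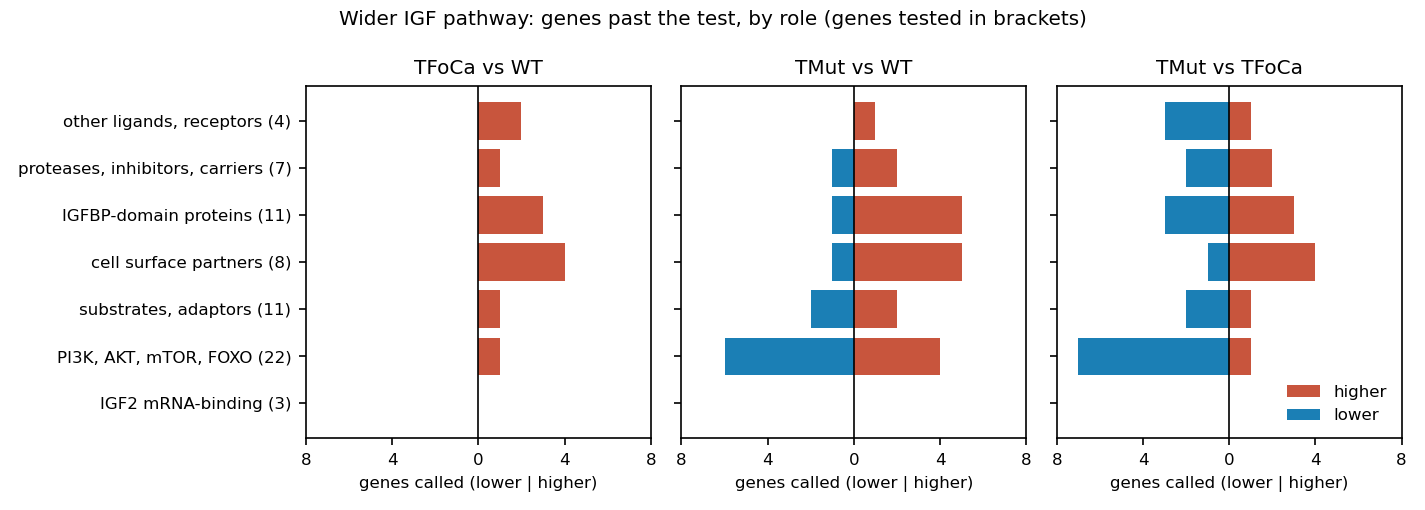
Number of genes (x axis) of each role list of the wider IGF pathway that were higher (right of 0) or lower (left of 0) at a limma adjusted p under 0.05, for the 3 comparisons. In TFoCa against WT every bar points to higher, and in TMut the PI3K, AKT, mTOR and FOXO list holds 6 lower and 4 higher genes.

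For each member the genes with the most similar pattern were sought among genes with a mean normalized count of 100 or more, by the mean absolute difference of centred log2 values over the 7 libraries. The genes named were picked as the closest of 13197 or 13198 in these same libraries, so a shared pattern follows from the choice. The distances were not tested. For Igfbp4 the nearest genes were Igsf10, at 0.06 log2 units, and Mfap4, at 0.12, where the median gene was at 0.85. Igsf10 had 353, 380 and 437 normalized counts in WT, 1023 and 2338 in TFoCa and 1192 and 838 in TMut, with the same high TFoCa replicate 2 as Igfbp4. For Igfbp3 they were Arhgdib and Adamts5, both at 0.18 against a median of 1.43. For Igfbp7 the nearest was Met, the hepatocyte growth factor receptor gene, at 0.17 against a median of 1.12. Met shared the split of the TFoCa lines, with 355 in replicate 1 and 117 in replicate 2. Its next was Gm15222, at 0.25. Igf1 lay nearest to Ndnf (0.13) and Gucy1b1 (0.15), against a median of 0.81, and Igfbp2 near Gm12473 (0.14), against 0.56. Igfbp5 lay nearest to Cacna2d1 (0.16) and Egln3 (0.17), against 0.50, Igfbp6 to Atp6v0e and Ssr2 (0.098 each), against 0.46, and Igf1r to Gm42047 (0.043) and Hcfc2 (0.047), against 0.34. The genes nearest to Igfbp1, S100g and Helt, were at 0.58 and 0.92, where the median was 2.98. S100g was lowest in the TMut libraries and TFoCa replicate 1, with 169, 142 and 428 in WT, 1.92 and 46.3 in TFoCa and 2.3 and 0 in TMut.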

How the data were processed

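Total RNA of 7 cultures was sequenced. The submitters' processing notes name STAR 2.7.3a, Trim Galore 0.6.5, SAMtools, featureCounts, DESeq2 and build mm39; settings, annotation and strand are not given in the sources used here. The values the authors deposited are a signal, namely normalized counts scaled by 1 size factor per library. Reads could be recovered as whole numbers, within 0.001, for 100% of values. In WT replicate 2 the lowest recovered count above 0 was 2, so its step rests on odd counts, found in 8305 genes. Of counts from 1 to 20, 70.3% to 79.3% were even, so reads may not be independent. Each gene has a sum of 71 reads or more. Genes reaching 10 normalized counts in 2 or more libraries were fitted with limma 3.58.1 (R 4.3.3, intensity trend, 4 residual degrees of freedom), after the script was checked on simulated data. Alternatives were pseudocounts of 0.5 and 8, no filter, a mean of 50 or more, TMM factors, DESeq2 1.42.0, edgeR 4.0.16, limma-voom, fits to 2 genotypes, a replicate block and leaving out each library. Exon lengths came from GENCODE M21 and promoter windows from RefSeq, both on GRCm38. Members, lists and tests were chosen with earlier results of these data known. The text names all 9 members, the 2 genes of each pathway list with the smallest adjusted p per comparison, and the 2 genes most like each member, except 2 genes that are not reported here. Other genes, such as Itgb1, Stc2, Irs4, Pappa and Igfals, were named after their values were seen; the marker sum without Vim and the limits for Igfbp1 with libraries left out were also added after seeing the data.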

Additional observations from a re-analysis of the deposited data

Results flagged for a closer look

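Igfbp2 changed in opposite directions against WT in the 2 mutant genotypes, and the difference between TMut and TFoCa itself passed limma's test (-1.46 ± 0.18, adjusted p = 0.00209). Its range over TFoCa was 49842 to 62745 and over TMut 19435 to 21272 normalized counts, with WT between them (29697 to 40766). The rise in TFoCa against WT was close to the threshold of limma's test (adjusted p = 0.0486). It was lost with these genotypes fitted alone (adjusted p = 0.0673) and on leaving out any 1 WT library (adjusted p from 0.0592 to 0.135). A pseudocount of 8 (adjusted p = 0.0509) and the replicate block (adjusted p = 0.146) ended it too. So did leaving out TFoCa replicate 1 (log2 fold change 0.49) or either TMut library (0.66 each).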

How the results depend on the processing

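Over all alternatives for the 9 members in 3 comparisons, 401 values kept direction and side of the threshold, 37 lost the call, 13 gained it and 8 changed sign. The changes of sign were those of Igf1 in TMut against WT (0.084 with DESeq2, 0.12 with edgeR, 0.034 with the replicate block, 0.034 without WT replicate 3 and -1.02 to 0.73 over all libraries left out in turn), Igfbp6 in TFoCa against WT (-0.014 without TFoCa replicate 1, at most 0.37), Igfbp5 in TMut against WT (0.16 without TMut replicate 2, at least -0.66) and Igfbp7 in TMut against TFoCa (-0.18 without TFoCa replicate 2, at most 1.87). None of these 4 passed the test with all libraries, and the cause of the changes of sign was not tested. Both values of 0.034 for Igf1 are the same estimate, as the block fits WT replicate 3 by itself. With each library left out in turn, the members called numbered 2 to 6 in TFoCa against WT (4 with all), 4 to 6 in TMut against WT (6) and 1 to 5 in TMut against TFoCa (5), where a fit to the 2 genotypes, with fewer libraries, gave 1. The pathway genes called numbered 5 to 17 (12), 23 to 38 (30) and 14 to 31 (30); they were 22 with DESeq2 in TFoCa against WT and 19 in a fit to TMut and TFoCa alone. All genes called numbered 495 to 1768 (1590), 4329 to 8127 (7043) and 3164 to 5940 (6491); they were 2947 with DESeq2 in TFoCa against WT and 3419 in a fit to TMut and TFoCa alone.

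The labels do not say that a replicate number marks anything shared, and libraries with equal numbers deviated from their group means with correlations of 0.0192 to 0.185, so no pairing was assumed. Only WT has a replicate 3, so the replicate block fits that library by itself and removes it from each difference against WT. The differences then equal those without WT replicate 3, such as 0.53 for Igfbp2 in TFoCa against WT. With the replicate block, 555 and 4620 genes were called against WT in TFoCa and TMut, and 5 pathway genes in TFoCa; the block ended the member calls of Igfbp2 in TFoCa (adjusted p = 0.146) and Igfbp6 in TMut (adjusted p = 0.0671), and of the named pathway genes the calls in TFoCa of Adam12, Ccn2, Itgb3, Rictor, Grb14 and Igf2, with adjusted p from 0.0539 to 0.142. Removing a library of a mutant genotype leaves 1, which is then assumed to vary like the other groups. Depth limits Igfbp1 in TMut, where 0 reads allow up to 3 if reads are independent, and more if they are not.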

Other observations

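The values of 4 further genes of the wider pathway are given without a test, since they were chosen after being seen. Stc2, a stanniocalcin gene, had 943, 3212 and 3535 normalized counts in the WT lines, 4536 and 8222 in TFoCa and 1548 and 953 in TMut. Irs4, a receptor substrate gene, stood at 478 in TFoCa replicate 2 and at 91.3 to 205 in every other library. Pappa, which encodes the protease of IGFBP4, was 637, 835 and 987 in WT, 587 and 538 in TFoCa and 506 and 469 in TMut. Igfals, the acid-labile subunit of the IGF carrier complex, had between 3.83 and 36.0 normalized counts per library, the highest in TMut replicate 2.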
